A study of Bos taurus with 47 samples.

Results

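COL1A1, COL1A2, COL3A1 and SPARC are genes of the fibroblast's extracellular matrix, and their transcripts were followed from the fibroblasts used as nucleus donors through cloned and fertilized bovine embryos to cells derived from blastocysts. The members were taken by identifier from the deposited table: COL1A1 is ENSBTAG00000013103, COL1A2 is ENSBTAG00000013472, COL3A1 is ENSBTAG00000021466 and SPARC is ENSBTAG00000014835. These are 4 of the 20526 genes in the table. The table holds identifiers only, so the names come from the list that chose the genes.

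The series held 47 mRNA sequencing libraries in 12 groups, 4 libraries a group except scNT morulae with 3 (replicates 2, 3 and 4). Fibroblasts were primary cultures from an ear biopsy of a Brahma Spanish bull cross, serum-starved before their use as donors. In somatic cell nuclear transfer (scNT) a fibroblast was fused to an oocyte whose own chromosomes had been removed. In vitro fertilization (IVF) used Holstein semen, so the IVF embryos did not carry the donor's genome, and embryos of both methods were cultured on bovine cumulus cells. Between scNT and IVF, method and genome therefore differ together and cannot be told apart. Mature oocytes were the other starting cell. Embryos were collected in pools of 20 on day 2 (2-cell), day 3 (8-cell), day 6 (morula) and day 8 (blastocyst). Cells derived from blastocysts of each method were also profiled, and the sources used here do not say how these were cultured. The labels name no animal or culture behind a replicate number, and the p-values therefore rest on the spread between libraries, which may be technical.

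Type I collagen, the main fibril-forming protein of skin, tendon and bone, is a heterotrimer of 2 chains encoded by COL1A1 and 1 chain encoded by COL1A2. COL3A1 encodes the chain of type III collagen, a homotrimer that is laid down with type I collagen in skin and vessels. SPARC (osteonectin) is a secreted matricellular protein that binds fibrillar collagen, is made by fibroblasts together with it, and is also a known product of extraembryonic endoderm. Fibroblasts typically express all of them strongly, and silencing of such somatic genes is part of what nuclear reprogramming in a cloned embryo is understood to require.

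Values are the authors' normalized counts, which are read counts divided by a single factor for each library. The libraries held 4608099 to 16642362 recovered reads. Libraries of a group correlated at a mean r of 0.907 to 0.988 on the log2 scale, and 2 libraries stood furthest apart, replicate 3 of the fibroblasts (0.907) and replicate 3 of the IVF 2-cell embryos (0.922). Markers of cell types could not be matched to identifiers, so the labelled cell types were not checked against markers. Whether oocyte or embryo pools held attached somatic cells, such as cumulus cells, could not be checked either. In these bulk samples fewer cells of a type and less RNA per cell cannot be told apart.

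All 4 transcripts were abundant in fibroblasts. COL1A1 had 120041, 218518, 20437 and 184662 normalized counts in fibroblast replicates 1 to 4. COL1A2 had 126614, 210622, 20075 and 208454 normalized counts in the same libraries. The chains of type I collagen thus moved together between the fibroblast libraries, with replicate 3 lowest for each. COL3A1 had 43499, 87263, 9961 and 92696 normalized counts, and SPARC had 66370.3, 78498, 15154 and 84722. Replicate 3 lay 5.87- to 10.7-fold below the other libraries for COL1A1, 6.31- to 10.5-fold for COL1A2, 4.37- to 9.31-fold for COL3A1 and 4.38- to 5.59-fold for SPARC.

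Oocytes held little of any of them. COL1A1 had 35.1, 64.9, 17.2 and 23.0 normalized counts in oocyte replicates 1 to 4, and COL1A2 had 56.1, 93.8, 49.7 and 51.3. COL3A1 had 4.3, 6.2, 0.0 and 1.8. Replicate 3 had 0 of 13030321 reads for COL3A1, which allows up to 1.84 normalized counts (3 reads, counting error only). SPARC, with 115, 306, 35.6 and 103 normalized counts, was the member with the most in oocytes relative to fibroblasts: its oocyte mean was 0.228% of its fibroblast mean. The oocyte means of COL1A2, COL1A1 and COL3A1 were 0.0443%, 0.0258% and 0.00527% of theirs. No oocyte library overlapped the fibroblast libraries for any member. The contrast is given as a description, because earlier results on it were known when the genes were listed.

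**Figure D1:**
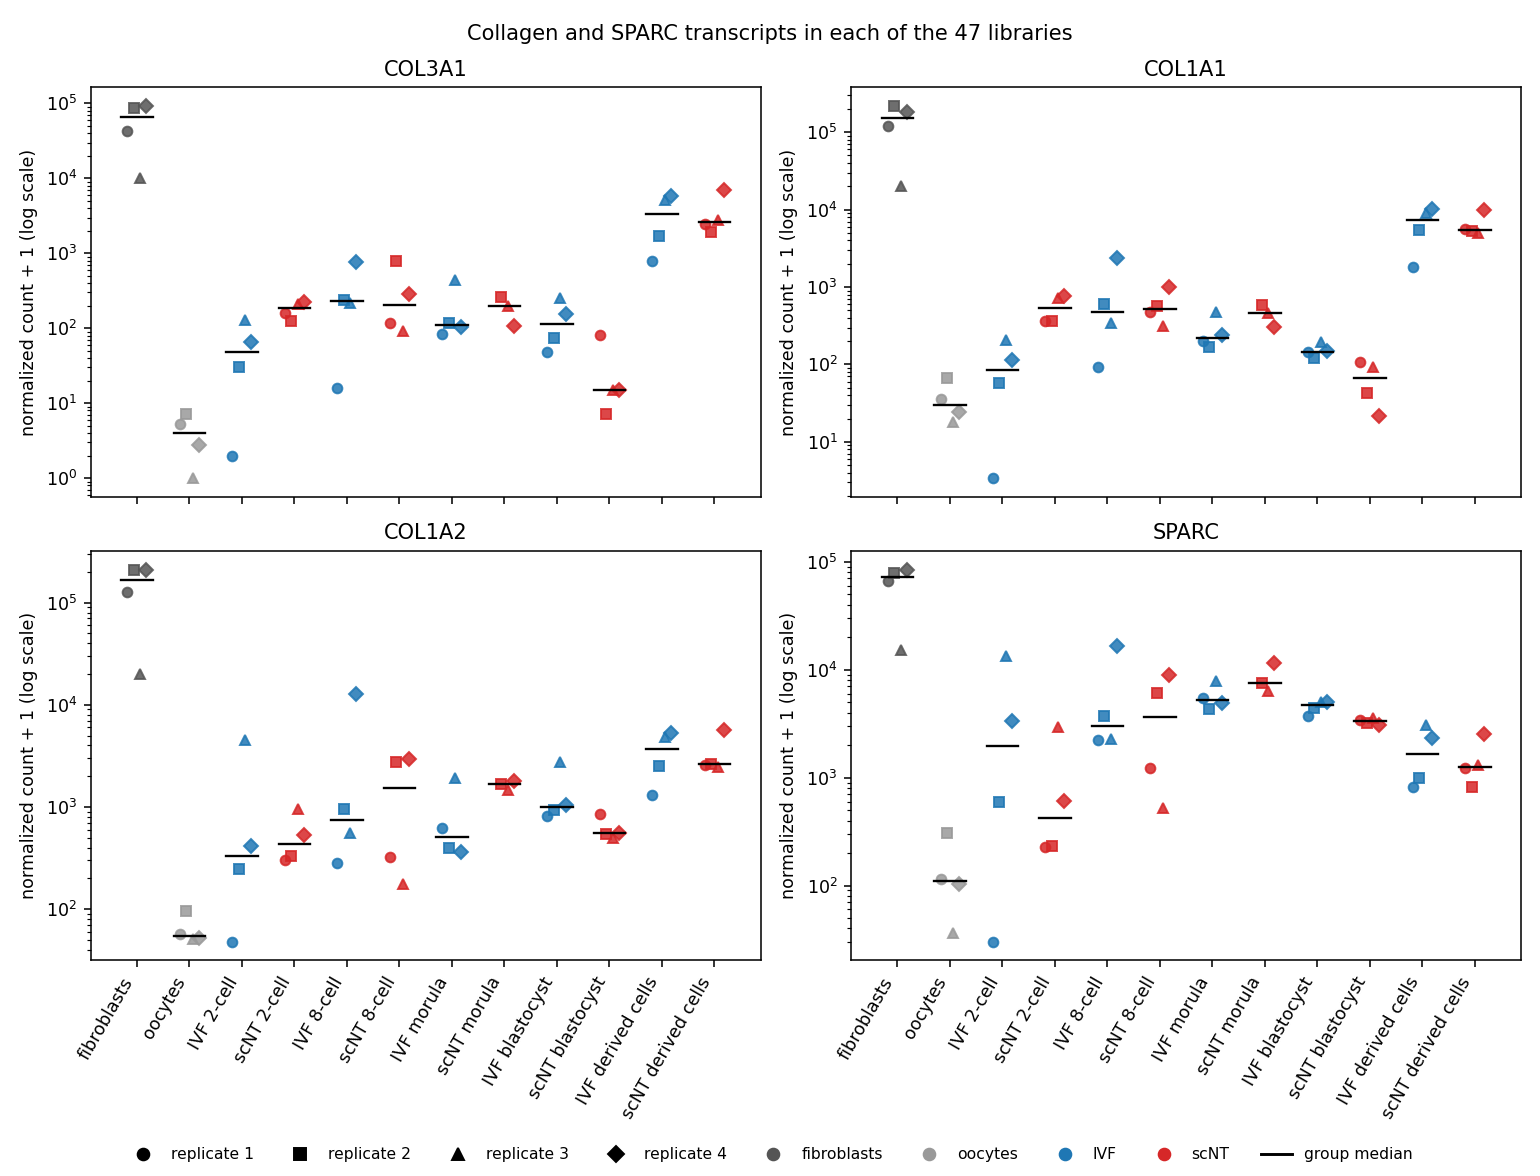
Normalized counts plus 1 on a log axis for COL3A1, COL1A1, COL1A2 and SPARC in each of the 47 libraries, by group, with point shape for the replicate number, colour for fibroblasts, oocytes, IVF or scNT, and a line at the group median. The fibroblast libraries are highest for every collagen gene, the median of each collagen transcript is higher in derived cells than in blastocysts of the same method, and SPARC is higher in morulae and blastocysts than in derived cells of the same method.

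The order of the groups by mean log2 level differed between the members. COL3A1 and COL1A1 ran from fibroblasts to derived cells to embryos to oocytes. For both, the fibroblast range did not overlap that of derived cells, and the derived cells' range did not overlap that of the next embryo group, scNT 8-cell embryos. For COL1A1, however, IVF 8-cell replicate 4, at 2363 normalized counts, lay above IVF derived cells replicate 1, at 1812. For COL3A1 the gap was narrow, between 784.4 normalized counts in scNT 8-cell replicate 2 and 786.5 in IVF derived cells replicate 1. Among embryos, neighbours in the COL3A1 order all overlapped, from scNT 8-cell embryos (mean log2 level 7.79) down to scNT blastocysts (4.25), which overlapped oocytes (1.68). In the COL1A1 order the neighbours overlapped except IVF blastocysts (7.23) and scNT blastocysts (5.78). COL1A2 had fibroblasts apart, at 16.6, and every neighbour below them overlapped: derived cells of both methods (11.6 each), scNT morulae (10.7), and so on to oocytes (5.94). SPARC had fibroblasts at 15.6 and scNT morulae next at 13.0. Derived cells came 8th and 9th of the 12 groups for SPARC, at 10.6 (IVF) and 10.4 (scNT). The neighbours below fibroblasts all overlapped for SPARC, and IVF 8-cell replicate 4, at 16639 normalized counts, lay above fibroblast replicate 3, at 15154.

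**Figure D2:**
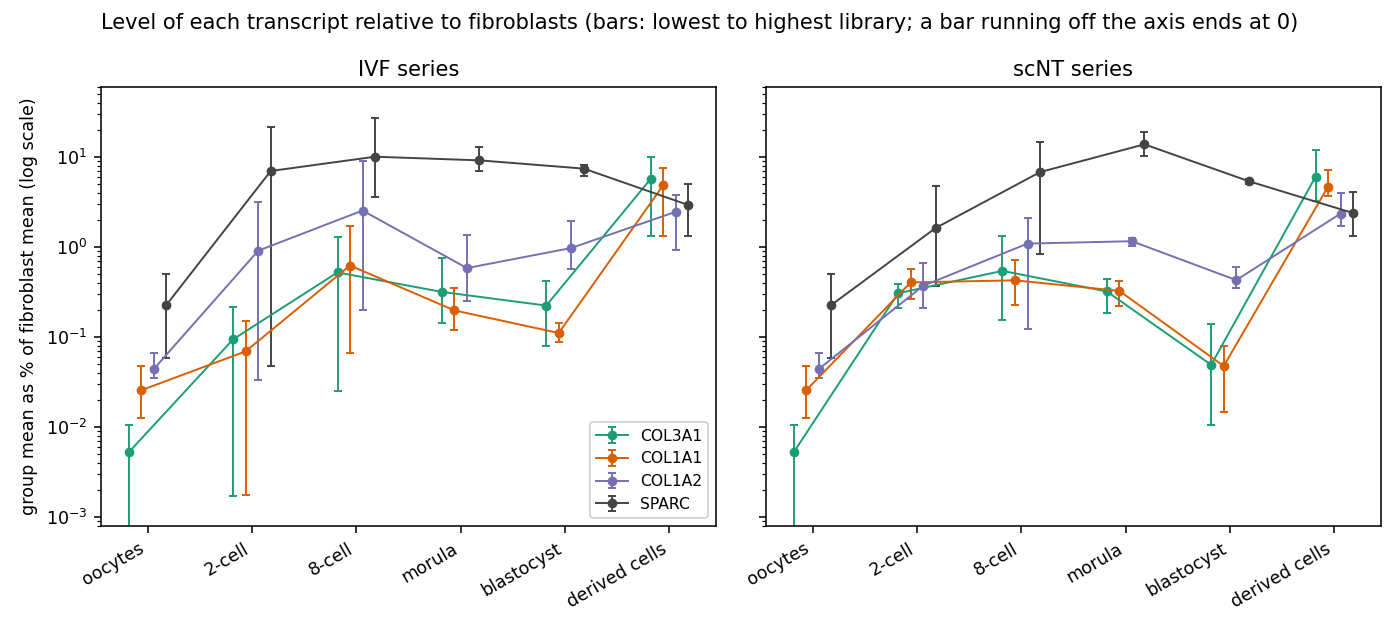
Mean level of each member as a percentage of its mean in the 4 fibroblast libraries (log axis), with bars from the lowest to the highest library, for the IVF series at left and the scNT series at right. The bar of COL3A1 in oocytes ends at 0 and runs off the axis. SPARC is the highest of the 4 from oocytes to blastocysts, whereas in derived cells COL3A1 and COL1A1 lie above it.

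At the 2-cell stage the collagen transcripts were higher in scNT embryos than in oocytes. COL1A1 had 358, 359, 721 and 773 normalized counts in scNT 2-cell replicates 1 to 4, and COL1A2 had 299.9, 331, 951 and 527. COL3A1 had 157, 125, 212 and 226. None of these libraries overlapped the oocytes. SPARC had 226, 234, 2943 and 606 normalized counts, and its lowest libraries lay within the oocyte range. Of the 4 members, 3 were higher than in oocytes, by 5.78 (SE 0.54) on the log2 scale for COL3A1, 4.02 (SE 0.46) for COL1A1 and 2.94 (SE 0.39) for COL1A2 (limma, adjusted p = 0.000157, 0.00175 and 0.00249). SPARC was 2.37 higher (SE 1.05, adjusted p = 0.172). Log2 differences here and below are of log2(normalized count + 1), fitted with limma in the groups compared, with p-values adjusted over all genes tested (Benjamini-Hochberg, called under 0.05). edgeR called the same number, 3, and DESeq2 all 4. In a single fit of all 12 groups COL1A2 was no longer called (adjusted p = 0.115). In this comparison 9.83% of 12210 genes were called higher. The members' median difference was 3.48, against 0.06 for all genes. With each library scaled to equal totals, 2.74% of genes were called higher. Earlier results on fibroblasts against these same oocyte libraries were known when the genes were listed. That choice may have favoured higher calls against oocytes, and the calls are to be read with this limit.

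Set against the donor cells, the scNT 2-cell level was a fraction of a percent for the collagens. Normalized counts are scaled per library, so percentages of the fibroblast mean compare relative levels, not amounts per cell or per embryo. COL1A1 stood at 0.407% of the fibroblast mean, COL1A2 at 0.373% and COL3A1 at 0.308%. SPARC stood at 1.64%. Without fibroblast replicate 3 these shares were 0.317%, 0.290%, 0.242% and 1.31%. The SPARC mean leaned on scNT 2-cell replicate 3, and without that library its share was 0.581%. The counts behind them were 438 to 1062 reads for COL1A1, 379 to 767 for COL1A2, 152 to 311 for COL3A1 and 285 to 2373 for SPARC.

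IVF 2-cell embryos were more variable. COL1A1 had 2.4, 56.2, 207 and 114 normalized counts in IVF 2-cell replicates 1 to 4. COL3A1 had 1.0, 29.4, 127 and 63.9. COL1A2 had 46.8, 248, 4469 and 418, and SPARC had 29.1, 588, 13284 and 3331. Replicate 1 was lowest and replicate 3 highest for every member, with a span of 457-fold for SPARC. Replicate 3 also had 5939973 recovered reads, against 13406644 to 16642362 in the other libraries of its group. Its top gene held 3.01% of its total, against 0.374% to 0.670% in the others. Whether this bears on its member values was not tested. Of the 3 members tested against oocytes none was called, with 0 at an unadjusted p under 0.05, and 0 with edgeR. DESeq2 called 1 (SPARC) of the 2 for which it gave an adjusted p, with none given for COL1A2. In that step 1.06% of 12313 genes changed. The limma differences were 0.54 (SE 1.25) for COL1A1, 2.65 (SE 1.27) for COL1A2 and 3.13 (SE 1.84) for SPARC, with adjusted p = 0.902, 0.496 and 0.594. Their median was 2.65, against -0.01 for all genes. COL3A1 was too low to be tested there, and its difference with no filter was 3.05.

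Between scNT and IVF 2-cell embryos COL1A1 did not overlap: the lowest scNT library had 358 normalized counts and the highest IVF library 207. COL1A1 was 3.48 higher in scNT (SE 1.22, limma, adjusted p = 0.833) and COL3A1 2.72 higher (SE 1.20, adjusted p = 0.833), with the lowest scNT library at 125 and the highest IVF library at 127. COL1A2 was 0.29 higher (SE 1.27, adjusted p = 0.952) and SPARC lower, at -0.76 (SE 1.89, adjusted p = 0.910). None of the 4 was called by limma or edgeR, DESeq2 called 0 of the 3 for which it gave an adjusted p (all but COL1A2), and 1 (COL1A1) had an unadjusted limma p under 0.05. The background was 0.0328%, 4 of 12195 genes. The members' median difference was 1.51, against 0.07 for all genes. The estimates leaned on IVF 2-cell replicate 1: without it the COL1A1 difference was 2.23. Replicate numbers paired the libraries at this stage and at the 8-cell stage by the check on correlations, and the replicate block left the members uncalled, with adjusted p = 0.504 for COL1A1, 0.516 for COL3A1, 0.912 for COL1A2 and 0.802 for SPARC. Within pairs COL1A1 was higher in scNT by 6.72, 2.65, 1.80 and 2.76 on the log2 scale, and COL3A1 by 6.30, 2.05, 0.74 and 1.81. Both were thus higher in 4 of 4 pairs, which adds little to the ranges. Without overlap, any pairing would place COL1A1 higher in scNT. The largest differences, in pair 1, rested on 5 reads of COL1A1 and 2 of COL3A1 in the IVF library.

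At the 8-cell stage the methods overlapped for every member. COL1A1 had 91.6, 609, 343 and 2363 normalized counts in IVF 8-cell replicates 1 to 4 and 470, 566, 311 and 986 in scNT. COL1A2 had 284, 947, 549 and 12700.0 in IVF and 320, 2748, 173 and 2973 in scNT. The scNT libraries formed a low pair, replicates 1 and 3, and a high pair, replicates 2 and 4, for COL1A2. COL3A1 had 14.9, 241, 214 and 757 in IVF and 116, 784, 90.3 and 285 in scNT. SPARC had 2217, 3707, 2270.1 and 16639 in IVF and 1230, 6052, 519 and 8946 in scNT, with the same low and high scNT pairs.

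No member was called between the methods at the 8-cell stage. The difference scNT minus IVF was 0.48 (95% interval -2.12 to 3.09) for COL3A1, 0.21 (-1.75 to 2.17) for COL1A1, -0.51 (-3.53 to 2.51) for COL1A2 and -0.79 (-3.03 to 1.45) for SPARC. The limma adjusted p-values were 0.813, 0.895, 0.830 and 0.646, and with the replicate block 0.664, 0.798, 0.559 and 0.253. The signs of COL3A1 and COL1A1 turned with edgeR (-0.05 and -0.66) and DESeq2. The count was 0 of 4 with limma, edgeR and DESeq2 and 0 at an unadjusted p under 0.05, and of 13000 genes 0% were called. With the replicate block 1.29% of genes, 168, were called and 0 of the 4 members. The members' median difference was -0.15, against 0.13 for all genes. These intervals leave room for differences of several fold in either direction.

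From the 2-cell to the 8-cell stage no member was called in either method. In IVF embryos COL1A1 was 3.32 higher (SE 1.39, limma, adjusted p = 0.309), COL3A1 2.57 (SE 1.51, adjusted p = 0.431), SPARC 2.16 and COL1A2 1.60 higher. In scNT embryos SPARC was 2.13 higher (SE 1.25, limma, adjusted p = 0.389), COL1A2 0.80, COL3A1 0.33 and COL1A1 0.05. In IVF 1 member (COL1A1) and in scNT 0 had an unadjusted p under 0.05, and edgeR called 0 in each. DESeq2 also called 0, of 4 members in scNT and, in IVF, of the 3 with an adjusted p (all but COL1A2). All genes were called at 0.263% in IVF and 5.68% in scNT. The members' median was 2.36 in IVF and 0.56 in scNT, against -0.07 and 0.03 for all genes.

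SPARC had the highest mean of the 4 as a share of its fibroblast level in morulae, 9.24% in IVF and 13.9% in scNT. It had 5464, 4332, 7923 and 4903 normalized counts in IVF morulae and 7604, 6377 and 11594 in scNT replicates 2, 3 and 4. COL1A2 had 625, 398, 1937 and 360.1 in IVF and 1691, 1472 and 1789 in scNT. Replicate 3 alone of the IVF libraries was as high as the scNT libraries for COL1A2. COL1A1 had 199, 165, 480.0 and 236 in IVF and 578, 458 and 299 in scNT, and COL3A1 had 83.3, 117, 439 and 104 in IVF and 259, 199 and 107 in scNT.

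None of the members was called between scNT and IVF morulae, where 18.7% of 13590 genes were. COL1A2 was 1.35 higher in scNT (SE 0.55, limma, adjusted p = 0.124), COL1A1 0.80 (SE 0.37, adjusted p = 0.159), SPARC 0.58 (SE 0.25, adjusted p = 0.129) and COL3A1 0.28 (SE 0.58, adjusted p = 0.764). Unadjusted p-values were under 0.05 for 2 members (COL1A2 and SPARC), and edgeR and DESeq2 called 0. The members' median was 0.69 and that of all genes 0.05. Without IVF morula replicate 3, COL1A2 was called at 1.88 (adjusted p = 0.0219) and COL1A1 at 1.11 (adjusted p = 0.0498).

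From the 8-cell embryo to the morula no member was called in IVF embryos, where 45.9% of genes changed, or in scNT embryos, where 68.9% did. The IVF differences ran from -0.90 (COL1A1) to 0.39 (SPARC) and the scNT differences from -0.32 (COL1A1) to 1.77 (SPARC, SE 0.94, limma, adjusted p = 0.129). No member had an unadjusted p under 0.05 in either step, and edgeR called 0. DESeq2 called 0 of 4 in scNT and, in IVF, 0 of the 2 with an adjusted p (it gave none for COL1A2 and SPARC). The members' medians were -0.48 in IVF and 0.34 in scNT, against -0.19 and -0.17 for all genes. Single libraries decided SPARC: without IVF 8-cell replicate 4 it was 1.05 higher in IVF morulae (adjusted p = 0.00885), and without scNT 8-cell replicate 4 it was 2.39 higher in scNT morulae (adjusted p = 0.0366).

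scNT blastocysts had less of all 4 transcripts than scNT morulae. COL1A1 had 108, 41.8, 90.4 and 20.3 normalized counts in scNT blastocyst replicates 1 to 4, and COL3A1 had 81.2, 6.2, 13.8 and 14.0. COL1A2 had 844, 541, 497 and 559, and SPARC had 3391, 3239.6, 3534 and 3102. No blastocyst library overlapped the scNT morulae for any member. The differences were -3.22 (SE 0.77) for COL3A1, -2.97 (SE 0.56) for COL1A1, -1.46 (SE 0.19) for COL1A2 and -1.32 (SE 0.19) for SPARC, with limma adjusted p = 0.0105, 0.00398, 0.000451 and 0.000787. All 4 were thus called lower, in a step in which 26.1% of 13236 genes were. The median over the members was -2.22 and over all genes -0.09. With equal library totals 43.6% of genes were called lower and the median of all genes was -0.49. Without scNT blastocyst replicate 1 the COL3A1 difference was -3.93. In a single fit of all 12 groups COL1A2 and SPARC were no longer called (adjusted p = 0.296 and 0.388).

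The same step in IVF embryos gave 1 call. COL1A1 had 145, 120.4, 194 and 146 normalized counts in IVF blastocysts, and COL3A1 had 46.5, 73.5, 249 and 156. COL1A2 had 817, 939, 2762 and 1034, and SPARC had 3763, 4441, 5054 and 5058. Only COL1A1 was called, at -0.72 (SE 0.29, limma, adjusted p = 0.0479), although its blastocyst and morula ranges overlapped. This call was lost without IVF morula replicate 3 (-0.40, adjusted p = 0.108) and without any of 4 other libraries (IVF morula replicate 4 and IVF blastocyst replicates 1, 2 and 4). It was also lost with no filter (adjusted p = 0.0506) and in the fit of all 12 groups (0.524). COL3A1 was at -0.43, SPARC at -0.28 and COL1A2 at 0.91 (limma, adjusted p = 0.627, 0.182 and 0.272). The share of genes called lower was 30.3% (44.4% with equal library totals), so 1 of 4 is near the background. The members' median was -0.35, against 0.03 for all genes.

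**Figure D3:**
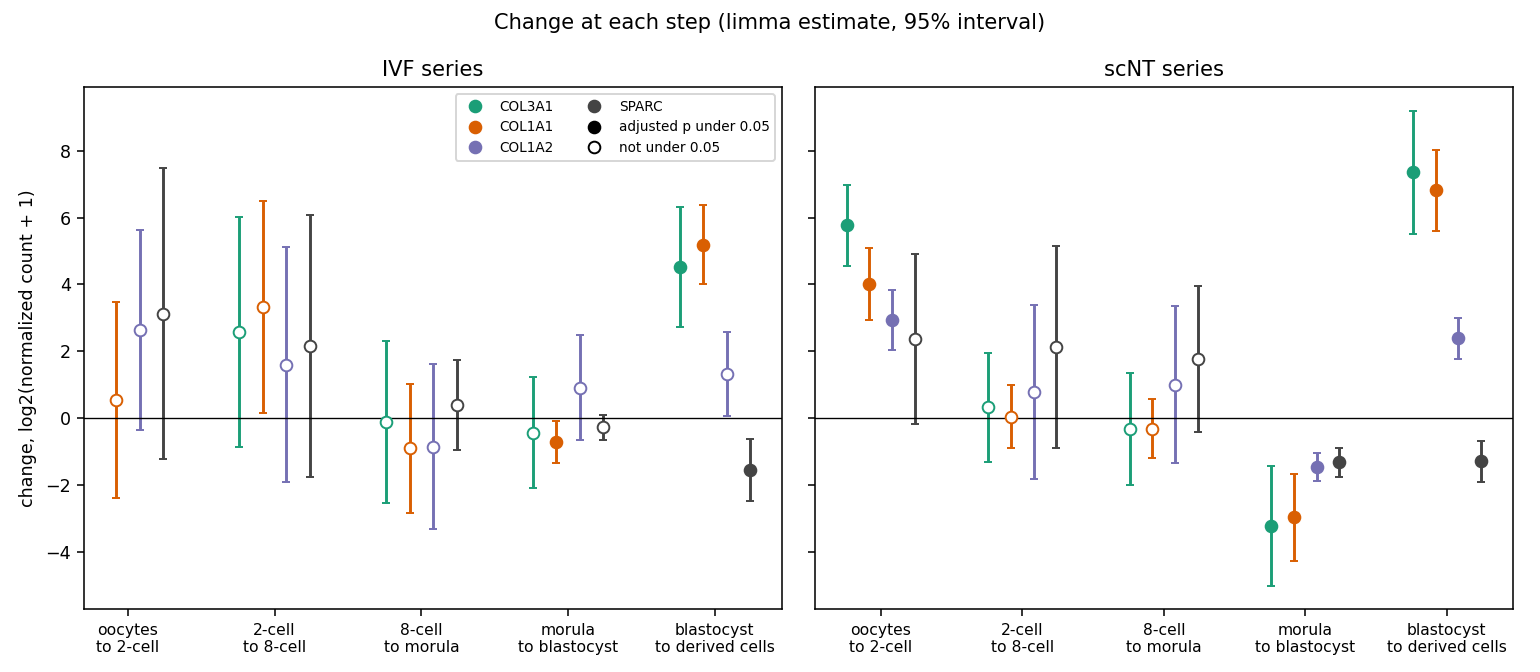
Change in each member at each step, on the log2(normalized count + 1) scale, with limma's 95% interval, in the IVF series (left) and the scNT series (right); filled points had an adjusted p under 0.05. The filled points of the scNT series are the collagen genes from oocyte to 2-cell embryo and all 4 members in the last 2 steps. COL3A1 has no point at the first IVF step because it was not tested there.

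Whether a step differed between scNT and IVF was tested as an interaction. At the morula to blastocyst step the scNT change minus the IVF change was -2.79 for COL3A1 (SE 1.13), -2.25 for COL1A1 (SE 0.67), -2.38 for COL1A2 (SE 0.74) and -1.04 for SPARC (SE 0.27), lower in scNT for each. The limma adjusted p-values were 0.191, 0.0927, 0.110 and 0.0566, so 0 of 4 were called, against 1.64% of 14439 genes. All 4 had an unadjusted p under 0.05, edgeR called 0, and DESeq2 called COL1A1 and SPARC. Over the members the median was -2.31 and over all genes -0.10. Without IVF morula replicate 3, COL1A2 (adjusted p = 0.0302) and SPARC (0.0331) were called, and SPARC also without scNT morula replicate 3 (0.0285). No member was called at the other steps. The background was 0% for the 2-cell to 8-cell step, 18.2% for the 8-cell to morula step and 1.5% for the step to derived cells. At those steps 0, 0 and 1 members had an unadjusted p under 0.05 (COL3A1, value 2.82, SE 1.18, limma, adjusted p = 0.308), and edgeR and DESeq2 called 0.

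Blastocysts of the methods were also compared directly. Each member had the lower mean in scNT: the difference was -2.51 for COL3A1 (SE 0.84), -1.45 for COL1A1 (SE 0.48), -1.03 for COL1A2 (SE 0.40) and -0.46 for SPARC (SE 0.12). The ranges of COL1A1 (20.3 to 108 in scNT, 120.4 to 194 in IVF) and of SPARC (3102 to 3534 in scNT, 3763 to 5058 in IVF) did not overlap. Those of COL3A1 and COL1A2 did, through scNT replicate 1, which was the highest scNT library for both.

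SPARC alone was called between blastocysts (limma, adjusted p = 0.0414). COL1A1, COL3A1 and COL1A2 had adjusted p = 0.118, 0.137 and 0.195, and all 4 had an unadjusted p under 0.05. A lower call was made for 3.42% of 12607 genes, and for 7.56% with equal library totals. The median of the 4 differences was -1.24 and that of all genes -0.01. DESeq2 called SPARC and COL1A1, and edgeR SPARC. The SPARC call was lost when any 1 of 7 libraries, all but IVF blastocyst replicate 1, was left out (adjusted p = 0.0596 to 0.118). It was also lost in the fit of all 12 groups (adjusted p = 0.960). COL3A1 was called without scNT blastocyst replicate 1 (-3.21, adjusted p = 0.0190). The reads behind the scNT blastocyst values were few for COL3A1 (4 to 49) and COL1A1 (16 to 65), against 324 to 509 for COL1A2 and 2046 to 2441 for SPARC.

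**Figure D4:**
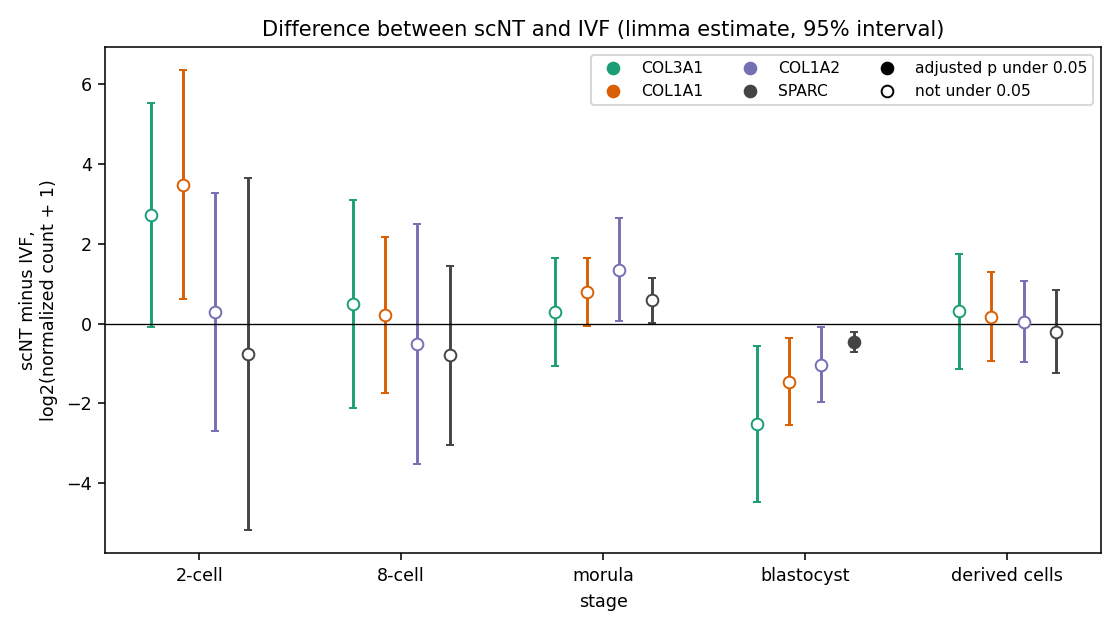
Difference between scNT and IVF in each member at each stage, on the log2(normalized count + 1) scale, with limma's 95% interval; filled points had an adjusted p under 0.05. SPARC in blastocysts, at -0.46, is the filled point, and the intervals are widest at the 2-cell and 8-cell stages.

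Cells derived from blastocysts had far more fibrillar collagen transcript than the blastocysts. COL1A1 had 1812, 5380.0, 9122 and 10202 normalized counts in IVF derived cells and 5608, 5216, 5049 and 9789 in scNT derived cells. COL3A1 had 787, 1705, 5064 and 5832 in IVF and 2494, 1902, 2789.9 and 7017 in scNT. None of these libraries overlapped the blastocysts of its method. COL1A2 had 1304, 2506, 4883 and 5332 in IVF derived cells, where it overlapped blastocysts, and 2578, 2642, 2463 and 5724 in scNT derived cells, where it did not. SPARC went the other way, with 821, 995, 3080.4 and 2326 normalized counts in IVF and 1230.1, 823, 1303 and 2515 in scNT, all below the blastocysts of the same method.

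Against scNT blastocysts all 4 members changed in scNT derived cells. COL3A1 rose by 7.35 (SE 0.78), COL1A1 by 6.81 (SE 0.52) and COL1A2 by 2.39 (SE 0.27), and SPARC fell by 1.29 (value -1.29, SE 0.27). The limma adjusted p-values were 0.000102, 1.10e-05, 2.73e-05 and 0.00183. Against IVF blastocysts 3 of 4 changed in IVF derived cells. COL1A1 rose by 5.19 (SE 0.51), COL3A1 rose by 4.53 (SE 0.77) and SPARC fell by 1.55 (value -1.55, SE 0.40), with limma adjusted p = 3.91e-05, 0.00110 and 0.00854. COL1A2 was 1.32 higher (SE 0.55, limma, adjusted p = 0.0631), and it was called with edgeR and DESeq2. Genes were called higher at 32.9% and lower at 34.1% in scNT (41.9% and 24.7% with equal library totals), and at 32.6% and 34.3% in IVF. The members' medians were 4.60 and 2.93, against -0.03 and -0.04 for all genes. Without scNT blastocyst replicate 1 the COL3A1 change in scNT was 8.05. SPARC was not called in the fit of all 12 groups in either method (adjusted p = 0.308 in scNT and 0.214 in IVF).

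Derived cells of the methods did not differ beyond their spread in any member. The difference scNT minus IVF was 0.31 (95% interval -1.13 to 1.75) for COL3A1, 0.17 (-0.95 to 1.28) for COL1A1, 0.04 (-0.97 to 1.06) for COL1A2 and -0.20 (-1.24 to 0.83) for SPARC. No member was called by limma, edgeR or DESeq2, 0 had an unadjusted p under 0.05, and 1.34% of 12390 genes were called. The limma adjusted p-values ran from 0.913 to 0.981. With edgeR the signs of COL1A1 (-0.03) and COL1A2 (-0.05) turned. The members' median was 0.11, and that of all genes 0.00.

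Against fibroblasts, all 4 members were lower in derived cells of both methods, which shared the fibroblast libraries. The genes were listed as fibroblast matrix genes with earlier results of these data known. That choice favoured lower calls against fibroblasts, so the p-values and calls of this contrast are a description. In IVF derived cells the differences were -5.08 (SE 0.80) for COL1A2, -5.03 (SE 0.64) for SPARC, -4.18 (SE 0.83) for COL1A1 and -4.11 (SE 0.86) for COL3A1 (limma, adjusted p = 0.00102, 0.000325, 0.00355 and 0.00488). In scNT derived cells they were -5.04, -5.23, -4.02 and -3.80 (limma, adjusted p = 0.000608, 0.000125, 0.00167 and 0.00279). The share of genes called lower was 21.9% in IVF and 22.3% in scNT. The members' medians were -4.61 and -4.53, against 0.04 and 0.03 for all genes. Without fibroblast replicate 3 the gaps were wider, from -4.81 (COL3A1) to -5.87 (COL1A2) in IVF and from -4.51 to -5.82 in scNT. As a share of the fibroblast mean, derived cells held 5.74% (IVF) and 6.08% (scNT) for COL3A1, 4.88% and 4.72% for COL1A1, 2.48% and 2.37% for COL1A2, and 2.95% and 2.40% for SPARC.

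The ratio of the type I collagen transcripts, COL1A1 over COL1A2 within a library, does not depend on library scaling. It is not corrected for transcript length, so its changes between groups can be read but not its absolute value as a ratio of molecules. Fibroblasts had 0.948, 1.04, 1.02 and 0.886, so replicate 3 kept the ratio of the other libraries although its levels were lower. IVF derived cells had 1.39, 2.15, 1.87 and 1.91, and scNT derived cells had 2.18, 1.97, 2.05 and 1.71, all above every fibroblast library. On the log2 scale the ratio was 0.853 ± 0.268 in IVF derived cells, 0.978 ± 0.147 in scNT derived cells and -0.043 ± 0.104 in fibroblasts (SD, n = 4 each). The differences from fibroblasts were 0.897 for IVF and 1.02 for scNT, each with a two-sided exact permutation p = 0.0286, the smallest that 4 libraries against 4 can give, and 0.0429 adjusted over 3 comparisons. The methods differed by 0.124 (exact permutation p = 0.514). A comparison of 3 libraries against 4 cannot pass this threshold.

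In the other groups the ratio is a description, added after the data were seen. In scNT 2-cell embryos it was 1.19, 1.08, 0.757 and 1.47. These values lay on both sides of the fibroblast range of 0.886 to 1.04, with none inside it. In IVF 2-cell embryos the ratio was 0.0513, 0.226, 0.0462 and 0.272. The 0.0513 of IVF 2-cell replicate 1 rested on 5 reads of COL1A1. Oocytes had 0.346 to 0.692, above every IVF 2-cell library and below every scNT 2-cell library. The scNT 8-cell libraries split, with 1.47 and 1.80 in replicates 1 and 3 and 0.206 and 0.332 in replicates 2 and 4. IVF 8-cell libraries had 0.186 to 0.643. Morulae had 0.248 to 0.655 (IVF) and 0.167 to 0.341 (scNT), and blastocysts 0.0703 to 0.178 (IVF) and 0.0363 to 0.182 (scNT). Relative to fibroblasts, blastocysts had more COL1A2 than COL1A1: the COL1A2 mean was 0.981% (IVF) and 0.431% (scNT) of the fibroblast mean, and that of COL1A1 0.111% and 0.0479%.

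**Figure D5:**
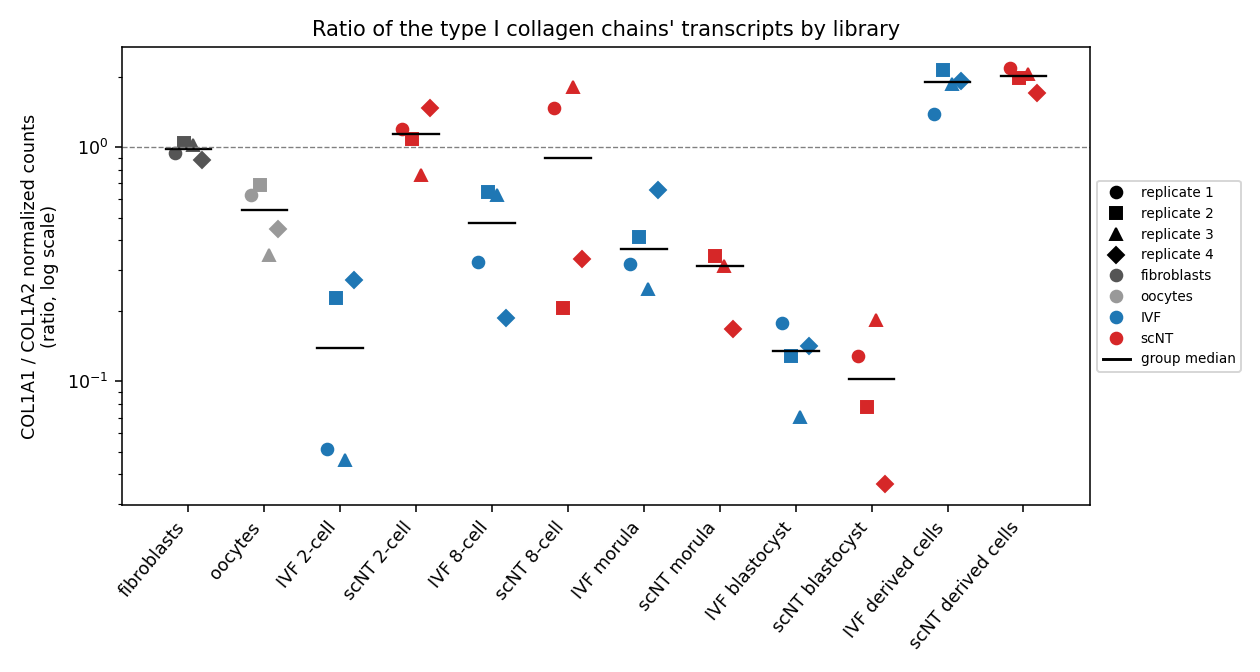
Ratio of COL1A1 to COL1A2 normalized counts in each library (log axis), by group, with point shape for the replicate number and a line at the group median; the dashed line marks a ratio of 1. Fibroblasts lie around 1, scNT 2-cell embryos between 0.757 and 1.47, derived cells between 1.39 and 2.18, and blastocysts below 0.2.

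SPARC stood higher relative to both type I collagen transcripts in blastocysts than in fibroblasts or derived cells, and by more against COL1A1 than against COL1A2. SPARC over COL1A1 was 0.359 to 0.742 in fibroblasts and 0.158 to 0.453 in derived cells of both methods. It was 25.9 to 36.9 in IVF blastocysts and 31.5 to 153 in scNT blastocysts. SPARC over COL1A2 was 0.373 to 0.755 in fibroblasts, 0.312 to 0.631 in derived cells, 1.83 to 4.89 in IVF blastocysts and 4.02 to 7.12 in scNT blastocysts. High values were not particular to blastocysts. SPARC over COL1A1 was 16.5 to 27.5 in IVF morulae, 13.2 to 38.8 in scNT morulae and 2.07 to 4.72 in oocytes. In 8-cell embryos it was 6.09 to 24.2 (IVF) and 1.67 to 10.7 (scNT). SPARC over COL1A2 was 4.09 to 13.6 in IVF morulae, 4.33 to 6.48 in scNT morulae and 0.716 to 3.26 in oocytes. In 8-cell embryos it was 1.31 to 7.81 (IVF) and 2.20 to 3.84 (scNT). At the 2-cell stage SPARC over COL1A1 was 0.630, 0.651, 4.08 and 0.784 in scNT and 12.1, 10.5, 64.3 and 29.3 in IVF. COL3A1 over COL1A1 was 0.362 to 0.502 in fibroblasts, 0.293 to 0.438 in scNT 2-cell embryos, 0.417 to 0.615 in IVF 2-cell embryos and 0.317 to 0.717 in derived cells. In IVF 2-cell replicate 1 both ratios to COL1A1 rested on 5 reads of COL1A1, with 2 reads of COL3A1. COL3A1 over COL1A1 was more spread at the 8-cell stage, with 0.163 to 0.623 in IVF and 0.247 to 1.39 in scNT, and in blastocysts, with 0.320 to 1.28 in IVF and 0.148 to 0.754 in scNT. Morulae had 0.419 to 0.915 (IVF) and 0.359 to 0.448 (scNT), and oocytes, with 0 to 0.123, lay below every other group. These ratios are descriptions, with no test.

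Over all 47 libraries, which share their group structure, COL3A1 and COL1A1 had the most alike profiles (Pearson r = 0.972, Spearman rho = 0.963 on the log2 scale). COL1A2 correlated with COL3A1 at r = 0.912 and with COL1A1 at 0.890. SPARC correlated with COL1A2 at 0.827, with COL3A1 at 0.651 and with COL1A1 at 0.596. Within the 31 embryo libraries the order changed: COL3A1 and COL1A1 remained at 0.909, and COL1A2 was closer to SPARC (0.823) than to COL3A1 (0.689) or COL1A1 (0.625). These values are descriptions and share the libraries' scaling. Of the 10909 genes with a mean of at least 50, members included, the non-members most like the members' mean profile were ENSBTAG00000019267 (r = 0.968) and ENSBTAG00000027020 (r = 0.958). Their names are not in the files.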

How the data were processed

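The RNA fraction above 200 nt was amplified in several PCR rounds with the Ovation SoLo kit, per the labels' protocols. No use of molecular identifiers is stated, so statements on depth cover only counting error. STAR, DESeq2, FastQC and MultiQC are named in the submitters' processing notes, with UMD3.1 as the build; no version or read counter is given in the sources used here. The authors deposited a signal of 1 normalized count per gene and library. Values were whole multiples of a step of 0.477 to 2.04, with 99.6% to 100% whole at a tolerance of 0.05, and reads were recovered from them.

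Groups and replicate numbers came from sample titles. The members and lists were chosen with earlier results of these data known, and the members are described in every comparison. Of 20526 identifiers 0 matched the RefSeq table used here (ARS-UCD2.0), so the 2 lists fixed (matrix genes and cell type markers) and the promoter motifs were not used, and no sequence is shown.

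Testing used limma 3.58.1 (trend, robust; R 4.3.3) on log2(value + 1), two-sided, in the groups compared, with no block. A gene was tested if its value reached 10 in as many libraries as the smaller group held. A pseudocount understates changes of low genes. The fit was tested on simulated data. Likeness was Pearson's r with the mean of the members' standardized profiles. Alternatives were pseudocounts of 0.5 and 5, no filter, a filter of 50, equal library totals, edgeR 4.0.16 and DESeq2 1.42.0 on the recovered reads, all 12 groups in 1 fit, the replicate block and each library left out. Replicate numbers paired libraries where every pair's deviations correlated above 0.1, which held for scNT against IVF at the 2-cell stage (0.118 to 0.683 over 4 pairs) and the 8-cell stage (0.231 to 0.563).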

Additional observations from a re-analysis of the deposited data

Results flagged for a closer look

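In 11 of the 44 groups of 4 libraries examined (4 members in 11 groups), the highest library lay far from the nearest other one, past the 95% critical value of Dixon's test on the normalized counts. Chance marks about 1 group in 20 where values spread normally, and counts with a long upper tail are marked more often. On the log2 scale used for the tests 3 values passed. They were 2 of the 11, both in scNT derived cells replicate 4 (COL1A1 and COL1A2), and the SPARC value of fibroblast replicate 3, the lowest of its group. The log2 scale was added after the data were seen. COL1A2 accounted for 6 of the 11 marked on the normalized counts. IVF 8-cell replicate 4 had 12700.0 normalized counts of COL1A2 against 946.5 in the nearest library, and 16638.6 of SPARC against 3706.7. IVF 2-cell replicate 3 had 4468.9 of COL1A2 against 417.7. IVF morula replicate 3 had 1937.1 of COL1A2 against 624.8, and 439.4 of COL3A1 against 117.4. IVF blastocyst replicate 3 had 2761.9 of COL1A2 against 1034.1, and oocyte replicate 2 had 93.8 against 56.1. In scNT derived cells, replicate 4 had 9788.9 of COL1A1 against 5607.7 and 5724.2 of COL1A2 against 2642.3. scNT blastocyst replicate 1 had 81.2 of COL3A1 against 14.0, and scNT 2-cell replicate 3 had 2942.7 of SPARC against 606.4. The part of single libraries in these values was not tested.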

How the results depend on the processing

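The 86 tested differences, of which 26 were called, gave 1548 values under the alternatives. Of these, 1421 had the same sign and side of the threshold, 66 turned sign, 25 gained a call and 36 lost one. No call turned sign. A pseudocount of 0.5 changed none. edgeR and DESeq2 turned the signs of uncalled differences: COL1A2 scNT against IVF at the 2-cell stage (-1.614 and -1.609), COL3A1 (-0.045 and -0.007) and COL1A1 (-0.659 and -0.605) at the 8-cell stage, COL1A1 (-0.034 and -0.038) and COL1A2 (-0.052 and -0.056) in derived cells, and the 2-cell to 8-cell interaction of COL1A2 (0.252 and 0.334) and SPARC (1.670 and 1.742). The last was also 0.006 with a pseudocount of 5 and 0.027 with equal totals. DESeq2 put the COL3A1 8-cell to morula interaction at 0.007. DESeq2 added calls for COL1A1 between blastocysts (-1.214), SPARC in IVF 2-cell embryos (5.192) and scNT 2-cell embryos (2.821) against oocytes, and the morula to blastocyst interaction of COL1A1 (-1.836) and SPARC (-0.931). The stricter filter also added the last (-1.040). COL1A2 between IVF derived cells and blastocysts was called with equal totals (1.431), edgeR (1.363) and DESeq2 (1.360). Equal totals added SPARC between IVF morulae and blastocysts (-0.682). The fit of all 12 groups added COL1A1 between IVF 2-cell and 8-cell embryos (3.319). That fit lost SPARC between blastocysts (-0.457), COL1A1 between IVF morulae and blastocysts (-0.722, also lost with no filter at -0.722), COL1A2 in scNT 2-cell embryos against oocytes (2.944), COL1A2 (-1.462) and SPARC (-1.317) between scNT morulae and blastocysts, and SPARC between derived cells and blastocysts in IVF (-1.546) and scNT (-1.295). DESeq2 gave neither an unadjusted nor an adjusted p for 5 values, among them that of COL1A2 between scNT and IVF 2-cell embryos. All 5 were in comparisons that held IVF 2-cell or IVF 8-cell libraries. The cause was not tested.

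Where replicate numbers paired the libraries, the replicate block changed no call of a member. Elsewhere the libraries share only a number, and the block added COL3A1 between IVF 2-cell and 8-cell embryos (2.569), COL1A2 between IVF morulae and blastocysts (0.913) and COL1A2 between IVF blastocysts and derived cells (1.319).

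Leaving out each library in turn gave these ranges for the differences that changed sign or call. scNT minus IVF ran from -0.712 to 1.471 (COL1A2) and -2.417 to 0.512 (SPARC) at the 2-cell stage. At the 8-cell stage it ran from -0.620 to 1.238 (COL3A1), -0.563 to 0.995 (COL1A1) and -1.191 to 0.635 (COL1A2). In morulae the ranges were 0.583 to 1.114 (COL1A1) and 1.068 to 1.876 (COL1A2), and in blastocysts -3.214 to -2.043 (COL3A1) and -0.548 to -0.405 (SPARC). In derived cells they were -0.250 to 0.713 (COL3A1), -0.365 to 0.466 (COL1A1), -0.363 to 0.314 (COL1A2) and -0.512 to 0.124 (SPARC). Among IVF steps, COL1A1 ran from -0.182 to 1.795 from oocyte to 2-cell embryo. From 8-cell embryo to morula the ranges were -1.216 to 0.643 (COL3A1), -1.538 to 0.288 (COL1A2) and 0.085 to 1.054 (SPARC). From morula to blastocyst they were -0.834 to 0.097 (COL3A1), -0.915 to -0.404 (COL1A1) and 0.519 to 1.441 (COL1A2), and to derived cells 1.049 to 1.726 (COL1A2). Among scNT steps the ranges were -0.279 to 0.756 (COL3A1) and -0.246 to 0.307 (COL1A1) from 2-cell to 8-cell, and -0.741 to 0.294 (COL3A1) and 1.025 to 2.393 (SPARC) to morula. The interactions ran from -1.982 to 0.341 (COL1A2) and -1.303 to 1.626 (SPARC) for 2-cell to 8-cell, and from -0.958 to 0.901 (COL3A1) and -0.199 to 1.359 (COL1A1) for 8-cell to morula. They ran from -2.903 to -1.981 (COL1A2) and -1.226 to -0.795 (SPARC) for morula to blastocyst, and from -0.055 to 0.580 (SPARC) for the last step. The COL1A1 to COL1A2 log2 ratio ran from 0.814 to 1.023 (IVF derived cells against fibroblasts), 0.973 to 1.089 (scNT) and -0.002 to 0.207 (between methods). The ratio tests against fibroblasts lost their calls by construction, since 3 libraries against 4 cannot pass.

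Counts over all genes moved by over 1.5 times in several comparisons. Between scNT and IVF the 4 calls at the 2-cell stage became 0 (stricter filter), 2 (edgeR), 9 (DESeq2 and all 12 groups) and 0 to 8 (a library left out). The 0 calls at the 8-cell stage became 3 (pseudocount 5), 2 (no filter), 1 (equal totals), 378 (DESeq2), 1208 (all 12 groups), 168 (replicate block) and 0 to 82. The 2542 in morulae became 2 with the block and 114 to 2666, the 750 in blastocysts 443 (all 12 groups) and 316 to 860, and the 166 in derived cells 455 (DESeq2), 302 (block) and 80 to 134. The 130 of IVF 2-cell embryos against oocytes became 75 (no filter), 79 (edgeR), 483 (DESeq2), 332 (all 12 groups), 44 (block) and 23 to 646. The 34 of the next IVF step became 16 and 85 (pseudocounts 0.5 and 5), 134 (no filter), 11 (stricter filter), 0 (edgeR), 667 (DESeq2), 2786 (all 12 groups), 114 (block) and 0 to 1491. In scNT, the 2256 against oocytes became 388 (all 12 groups), 1440 (block) and 789 to 2757, the 706 of the next step 1502 (DESeq2), 323 (block) and 266 to 1059, and the 6315 between morulae and blastocysts 3776 (block). The interaction counts 0, 2644, 237 and 208 became 0 to 94, 1185 to 4346, 29 to 570 and 96 to 223 with a library left out. DESeq2 gave 7 (2-cell to 8-cell), 765 (morula to blastocyst) and 402 (to derived cells). The count to derived cells was 340 with equal totals and 125 with all 12 groups, that of 2-cell to 8-cell 14 with all 12 groups, and that of morula to blastocyst 375 (pseudocount 5) and 384 (stricter filter). Equal totals shifted the median of all genes by over 0.1 in several comparisons, to -0.155 between blastocysts, -0.379 and -0.487 from morula to blastocyst (IVF and scNT), 0.259 from scNT blastocysts to derived cells, and 0.215 and 0.223 from fibroblasts to derived cells. The share of calls that were higher then went from 53.2% to 17.4% in scNT 2-cell embryos against oocytes, 42.5% to 15.7% between blastocysts, 39.4% to 17.3% between morulae, 49.4% to 26.4% and 45.2% to 21.0% from morula to blastocyst (IVF and scNT), and 49.1% to 62.9% from scNT blastocysts to derived cells. The reads behind COL3A1 in oocytes (0 to 12), IVF 2-cell embryos (2 to 110) and scNT blastocysts (4 to 49) limit the precision of its differences there. The same holds for COL1A1 in IVF 2-cell embryos (5 to 194).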
